A study of Mus musculus with 4 samples.

Results

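The genes described here are Myc, Mycn, Mycl, Max, Sall4, Sall1, Lin28a and Utf1, followed through H3K27ac HiChIP contacts in mouse embryonic stem cells. HiChIP ligates DNA ends that lie close together in fixed nuclei and then enriches the ligated fragments with an antibody, here against histone H3 acetylated at lysine 27, a mark of active promoters and enhancers. Read pairs were counted between anchors, which are fixed genomic intervals, and each counted pair of anchors is referred to as a loop, with no requirement that it exceed a background. All loops with an anchor overlapping a GENCODE M21 start site of one of the 8 genes were taken, which gave 782 of the 1513030 loops in the deposited table, or 0.0517%. Of the 8 genes, 7 had an anchor over a start site, 1 anchor each, and Sall1 had none. No loop joined 2 of these genes.

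B6 refers to lines of the inbred strain C57BL/6J and D2 to lines of DBA/2J. Each strain was represented by 2 separate embryonic stem cell lines, and each line by 1 of the 4 libraries. All lines carried the unmodified genotype of their strain and were grown in medium with serum, LIF and the inhibitors PD0325901, which blocks MEK, and CHIR99021, which blocks GSK3. D2 replicate 1 is marked 10cyc in its library name, unlike the remaining libraries, which are marked 8cyc, and the labels give no meaning for this. With 2 lines per strain, every p-value below sets the difference between strains against an estimated spread between lines. The tests draw that spread partly from all loops, genes or anchors tested together, and not from a feature's own 4 libraries alone. A difference between these lines need not hold for every line of a strain, and in such bulk libraries fewer cells with a contact and fewer contacts per cell cannot be told apart. Counts also depend on the acetylation at the anchors and on how the reads of each strain map. Neither was measured apart from contact, so a lower count need not mean fewer contacts.

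Myc, Mycn and Mycl encode related basic helix-loop-helix leucine zipper transcription factors that bind DNA as dimers with Max, at E-box sequences, and drive genes of growth and metabolism. In embryonic stem cells Myc and Mycn support self-renewal. Sall4 and Sall1 are zinc finger transcription factors that bring the NuRD histone deacetylase complex to DNA, and Sall4 is needed for the undifferentiated state. Lin28a is an RNA-binding protein that blocks the maturation of let-7 microRNAs, and Utf1 is a chromatin-associated factor found mainly in undifferentiated cells.

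The 7 anchors were 22.0 to 54.8 kb wide and held further start sites in 6 cases (GRCm38, mm10). Myc (chromosome 15, anchor 61974729 to 61997256) shared its anchor with Gm37947. Mycn (chromosome 12, 12918381 to 12948102) shared it with no other gene. Mycl (chromosome 4, 122994023 to 123023282) shared it with Trit1, a tRNA-modifying enzyme. Max (chromosome 12, 76937684 to 76973706) shared it with Gm35041 and Gm47218, and Sall4 (chromosome 2, 168738965 to 168793765) with Atp9a and Gm14261. The Lin28a anchor (chromosome 4, 133998617 to 134020573) also covered start sites of Dhdds and Gm13061, and the Utf1 anchor (chromosome 7, 139935891 to 139958928) those of Gm16201, Gm2044, Mir202 and mmu-mir-7686. Counts of such an anchor belong to all genes in it and cannot be divided among them.

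The sequence just upstream of the RefSeq start (GRCm38.p6) is shown for the genes in anchors that had a RefSeq promoter entry. Only bases upstream of all annotated start sites of the gene itself were kept, which left none for Mycl. Transcripts of other genes were not checked. The bases shown are those of the anchors nearest to the start. They run 5′ to 3′ on the gene's strand, in lower case, with matches to the GC-box GGGCGG or the E-box CACGTG in capitals, searched on both strands. The stretches are chr12:12941915-12942086 for Mycn (172 bases, minus strand), chr12:76962249-76962498 for Max (250 bases, minus strand), chr4:134018842-134019066 for Lin28a (225 bases, minus strand) and chr7:139943606-139943788 for Utf1 (183 bases, plus strand). The Max E-box, chr12:76962246-76962251, began 3 bases upstream of the RefSeq start and ran across it, so it is shown on its own with 12 bases on each side.
Mycn: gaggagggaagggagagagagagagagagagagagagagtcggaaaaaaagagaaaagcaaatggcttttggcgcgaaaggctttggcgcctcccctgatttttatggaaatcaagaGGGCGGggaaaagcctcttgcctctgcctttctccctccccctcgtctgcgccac
Max: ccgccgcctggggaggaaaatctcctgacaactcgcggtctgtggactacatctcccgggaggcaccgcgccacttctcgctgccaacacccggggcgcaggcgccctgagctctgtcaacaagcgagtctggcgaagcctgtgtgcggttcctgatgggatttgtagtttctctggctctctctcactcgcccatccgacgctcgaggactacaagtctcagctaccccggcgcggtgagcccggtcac
Max E-box: ggtgagcccggtCACGTGttagggggccga
Lin28a: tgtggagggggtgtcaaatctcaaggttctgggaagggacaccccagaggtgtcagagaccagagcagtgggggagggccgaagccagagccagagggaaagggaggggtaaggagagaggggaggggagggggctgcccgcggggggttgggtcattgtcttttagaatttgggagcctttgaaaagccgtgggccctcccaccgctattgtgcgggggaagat
Utf1: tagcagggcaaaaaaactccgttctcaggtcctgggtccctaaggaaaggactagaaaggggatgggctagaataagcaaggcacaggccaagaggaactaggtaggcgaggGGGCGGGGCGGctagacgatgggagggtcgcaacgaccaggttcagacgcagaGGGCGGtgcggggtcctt
In these printed stretches Utf1 had 3 matches to the GC-box, 2 of them overlapping, Mycn had 1, and Max and Lin28a had 0. The full 300-base windows, which run past the start, held 4 for Utf1, 2 for Mycn, 1 each for Mycl and Lin28a, and 0 for Max. Max was the only one of the 5 genes with an anchor and a promoter entry to hold an E-box in the full 300-base window, and 7.15% of 32851 RefSeq promoter windows of that length held one. The GC-box was found in 35.7% of them. A match describes letters in these windows and says nothing of binding.

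Total counts were 2767882 to 2944258 per library. Levels are given as CPM, the count divided by the library total and scaled by 1e6. Anchors lay over start sites of 7 of 10 pluripotency markers, with a summed level of 1767 to 2831 CPM per library. They also lay over those of 2 of 5 fibroblast markers (Thy1 and Lum), with a summed level of 5.78 to 9.28 CPM. These sums depend on the number of genes and on the width of their anchors. Per kb of anchor, the median was 6.37 CPM for the pluripotency markers and 2.29 CPM for the fibroblast markers. Among the further marker lists, named with the processing, only mesoderm had a higher median per kb than pluripotency. The markers without an anchor were Klf2, Esrrb and Tfcp2l1 for pluripotency, and Col1a1, Col1a2 and Col3a1 for fibroblasts. The highest pluripotency sum, 2831 CPM, was in D2 replicate 1, against 1767 and 1950 CPM in B6 and 1833 CPM in D2 replicate 2, and its part in the results below was not tested.

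In the D2 lines the contact counts of Lin28a were lower and those of Myc higher than in the B6 lines, and the contact totals of the other 5 genes did not pass the test. Contact total means the sum of counts over all loops of a gene's anchor. It was tested with edgeR's quasi-likelihood test for every annotated gene with an anchor over a start site, with Benjamini-Hochberg adjustment over 21727 genes, and genes or loops with an adjusted p under 0.05 are referred to as called. Of the 7 genes, 2 were called, against 13.1% of all genes tested. Lin28a was lower in D2, as were 9.48% of all genes, and Myc was higher, as were 3.58%.

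For Lin28a the contact total was 279 and 267 CPM in B6 replicates 1 and 2, and 139 and 158 CPM in D2 replicates 1 and 2. Both D2 libraries lay well below both B6 libraries. The log2 fold change, D2 over B6, was -0.93 (SE 0.13, adjusted p = 4.9e-06, edgeR quasi-likelihood test), a 1.83-fold lower mean in D2.

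Myc had 113 and 150 CPM in B6 and 194 and 188 CPM in D2. The D2 libraries lay above both B6 libraries, which differed among themselves more than the D2 pair did. The log2 fold change was 0.49 (SE 0.14, adjusted p = 0.0149, edgeR), a 1.46-fold higher mean. Without B6 replicate 1, which left B6 with a single library, the log2 fold change in edgeR was 0.30 and Myc was not called. Over all genes tested, a smaller share was called in that setting too. DESeq2 gave an adjusted p of 0.0786 for Myc.

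Of the remaining genes, Utf1 had 146 and 148 CPM in B6 and 201 and 163 CPM in D2, a log2 fold change of 0.25 (adjusted p = 0.234, edgeR). Mycl had 144 and 142 CPM in B6 and 182 and 153 CPM in D2 (0.16, adjusted p = 0.463, edgeR), and Max had 176 and 179 CPM in B6 and 208 and 188 CPM in D2 (0.10, adjusted p = 0.670, edgeR). In these 3 genes both D2 libraries lay above both B6 libraries without a call, which was common: 32.7% of all genes had D2 above B6 in this way. Mycn had 145 and 152 CPM in B6 and 155 and 152 CPM in D2, with a log2 fold change of -0.01 (SE 0.13, adjusted p = 0.977, edgeR). Sall4 had 605 and 584 CPM in B6 and 630 and 548 CPM in D2, with a log2 fold change of -0.07 (SE 0.13, adjusted p = 0.787, edgeR). The strains overlapped in both genes.

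**Figure D1:**
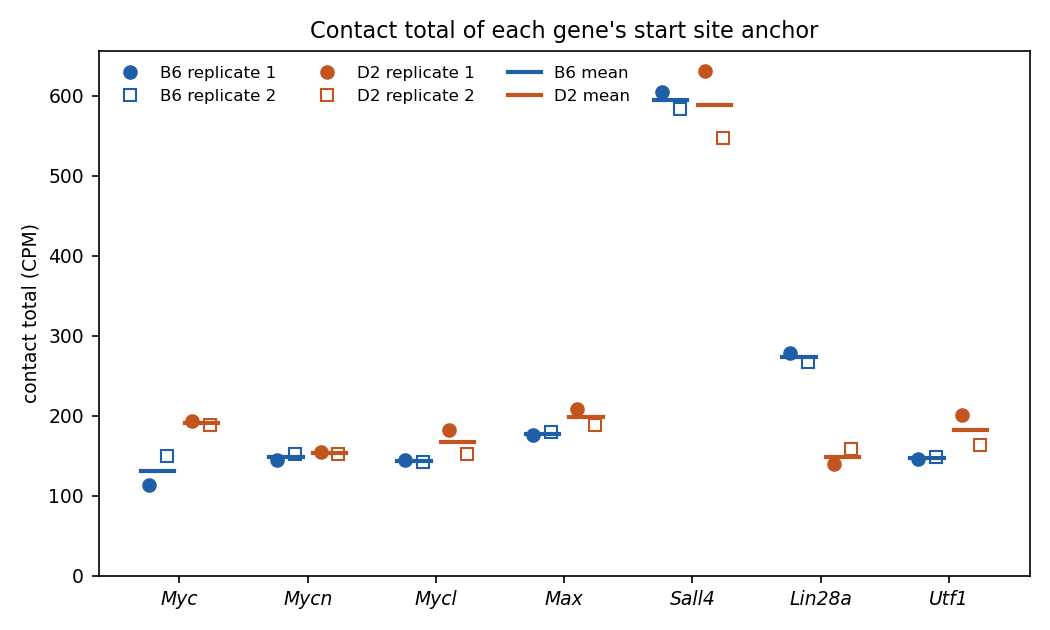
Contact total in CPM (y axis) of the anchor over the start site of each gene (x axis) in the 4 libraries, B6 blue and D2 orange, with a bar at the mean of each strain's 2 libraries. Lin28a is lower in both D2 libraries (139 and 158 CPM) than in both B6 libraries (279 and 267 CPM), and Myc is higher in both D2 libraries.

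Wide anchors collect more counts, so levels were compared between genes as CPM per kb of anchor, averaged over the 4 libraries. Sall4 had the highest density at 10.8 CPM per kb, followed by Lin28a at 9.61, Myc at 7.15, Utf1 at 7.14, Mycl at 5.31, Max at 5.22 and Mycn at 5.08 CPM per kb. The median over all protein-coding genes with an anchor over a start site was 5.95 CPM per kb. The order depended on the strain. Lin28a reached 12.7 and 12.2 CPM per kb in the B6 libraries, above the 11.0 and 10.7 of Sall4, but 6.35 and 7.21 in the D2 libraries, below the 8.61 and 8.35 of Myc. Mycl, Max and Mycn were not separated from each other beyond the spread between libraries: their densities ran from 4.87 to 6.22, 4.89 to 5.79 and 4.87 to 5.21 CPM per kb.

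The genes differed in how many partners they had. The number of loops was 43 for Myc, 52 for Mycn, 90 for Mycl, 102 for Max, 104 for Utf1, 176 for Sall4 and 215 for Lin28a. Among 3343 protein-coding genes with a single anchor and at least 1000 counts, the median was 116 loops, and the 5th and 95th percentiles were 66 and 172. Myc and Mycn thus lay below the 5th percentile and Sall4 and Lin28a above the 95th. The number of other anchors within 1 Mb differed too: 30 for Myc, 37 for Mycn, 54 for Mycl, 65 for Max, 52 for Utf1, 79 for Sall4 and 134 for Lin28a. Loop numbers and percentiles were not adjusted for it. Counts were spread over few partners in Myc and Mycn and over many in Lin28a: the inverse of the summed squared shares of the loops, an effective number of partners, was 6.45 for Myc, 4.17 for Mycn and 34.3 for Lin28a, against a median of 18 over the 3343 genes.

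Reach also differed. The count-weighted median distance, within which 50% of a gene's counts fell, was 51.7 kb for Mycn, 101 kb for Myc, 106 kb for Sall4, 108 kb for Mycl, 135 kb for Max, 262 kb for Lin28a and 360 kb for Utf1, beside a median of 115 kb over the 3343 genes. Contacts beyond 500 kb made up 45.7% of the counts of Utf1, above the 95th percentile of those genes (31.1%), and 7.25% and 7.51% of those of Mycn and Myc. Myc was the most one-sided: 97.0% of its counts went downstream of the gene, a share exceeded by almost none of the 3343 genes, whose 95th percentile was 75.6%. Most of the 30 anchors within 1 Mb of Myc also lay downstream, and these shares were not adjusted for the position of anchors. Mycn (82.1%) and Mycl (77.4%) were also above that percentile, and Sall4 (46.9%) and Lin28a (55.5%) were near balance.

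**Figure D2:**
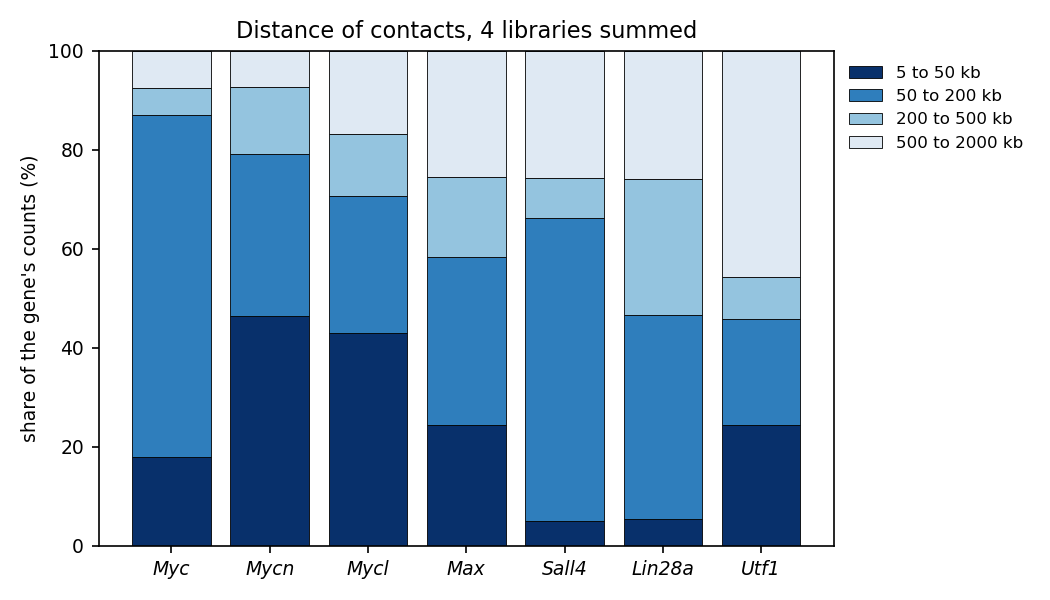
Share of each gene's counts (y axis, percent, 4 libraries summed) by distance to the partner anchor, in 4 classes from 5 to 50 kb (dark) to 500 to 2000 kb (pale). Mycn and Mycl have the largest shares within 50 kb (46.3% and 42.9%), Myc is dominated by 50 to 200 kb (69.2%), and Utf1 has 45.7% beyond 500 kb.

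Loops with at least 20 counts over the 4 libraries were tested one by one with the same edgeR test, adjusted over all 108034 such loops of the table. Of the 782 loops, 171 passed this filter and 611 did not. The test called 6 of the 171, 1 higher in D2 at Myc and 5 lower at Lin28a, which is 3.51% against 1.45% of all tested loops (0.492% higher and 0.957% lower). At an unadjusted p under 0.05 there were 35, of which 17 were at Lin28a, 5 each at Myc and Max, and 4 each at Sall4 and Utf1. The share of all tested loops, or of all genes, under this unadjusted threshold was not counted. The median log2 fold change of the 171 loops was 0.03, and that of all tested loops 0.02. All 4 libraries were separated by strain in 97 loops, with D2 above in 48 and B6 above in 49, where 41.7% of all tested loops were so separated.

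**Figure D3:**
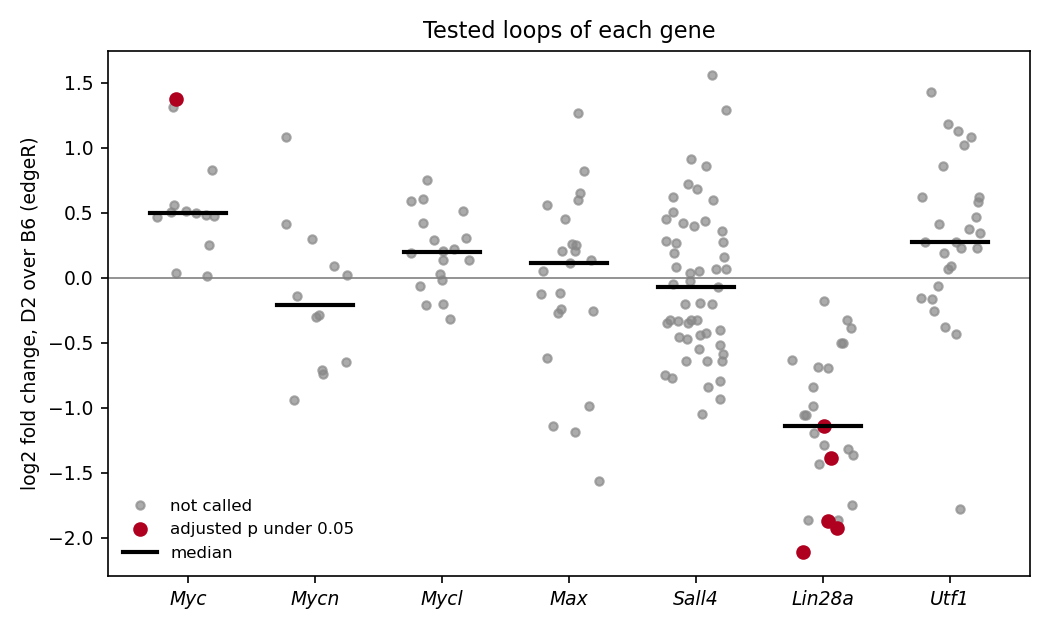
Log2 fold change, D2 over B6, of each tested loop (points) by gene, with the median as a bar and called loops in red. All 25 tested loops of Lin28a lie below 0 (median -1.14) and all 13 of Myc above 0 (median 0.50), while the other genes scatter on both sides.

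The loops of Myc ran into the neighbouring gene Pvt1, a long non-coding RNA gene that starts 52.6 kb downstream of Myc and is known to hold regulatory elements of the Myc locus. Partner anchors over Pvt1 (chromosome 15, 62037986 to 62378096) took 71.7% of the counts of Myc. The counts to Pvt1 were 78.1 and 109 CPM in B6 and 143 and 132 CPM in D2. Both D2 libraries lay above both B6 libraries, but as a share of all Myc counts the contacts with Pvt1 were 71.1% ± 2.70 in B6 and 72.0% ± 2.75 in D2 (mean ± SD, n = 2 each), a difference smaller than the spread between lines.

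The most frequent partner of Myc lay 101 kb downstream, at 62063789 to 62110674, over Pvt1 start sites. It had 96 and 101 counts in B6 and 155 and 136 in D2 (34.5 ± 2.16 and 51.1 ± 6.94 CPM), a log2 fold change of 0.50 (SE 0.23, adjusted p = 0.336, edgeR). Next came the first Pvt1 start sites at 63.0 kb with 67 and 93 against 121 and 112 counts, and an intergenic anchor at 23.1 kb with 52 and 62 against 73 and 94 counts. In all 3 loops both D2 libraries were above both B6 libraries, and none was called.

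One Myc loop was called, to an anchor 188 kb downstream over start sites of Gm27957 and Pvt1 (62169204 to 62179374). It had 5 and 14 counts in B6 and 24 and 28 in D2 (3.36 ± 2.32 and 9.09 ± 0.59 CPM). The log2 fold change was 1.37 (SE 0.40, adjusted p = 0.0409, edgeR), and the total of the partner anchor itself was not called (0.19, adjusted p = 0.541, edgeR). The loop was called in 4 of 10 settings and lost with either D2 library or B6 replicate 1 left out; without B6 replicate 1 its log2 fold change was 0.79 (adjusted p = 0.772). Over the 13 tested loops of Myc, 10 had D2 above B6 in all libraries and 3 overlapped, and all 13 log2 fold changes lay above 0. Of all tested loops, 23.8% had D2 above B6 in this way. The 13 loops share 1 anchor and make up most of its contact total, so they are not separate observations.

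**Figure D4:**
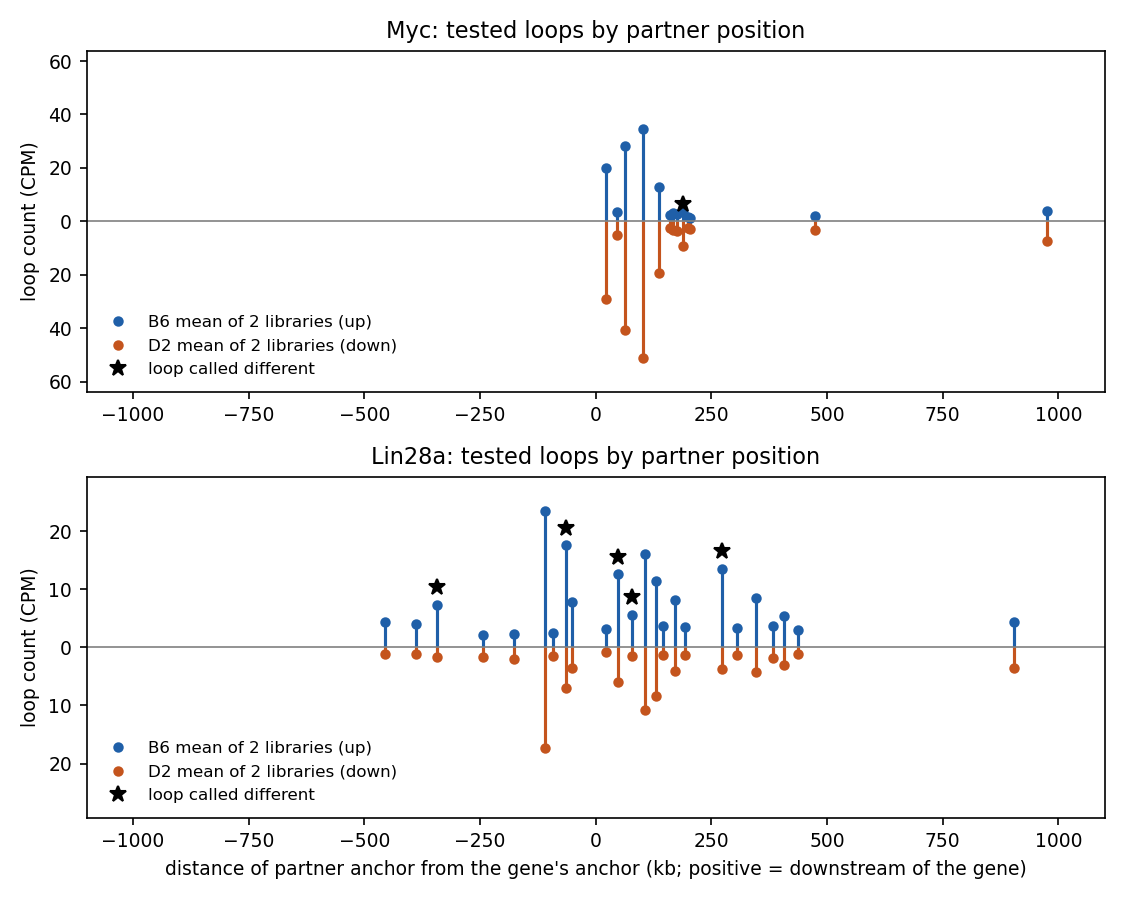
Mean CPM over 2 libraries of each tested loop (B6 upward in blue, D2 downward in orange) against the distance of the partner anchor from the gene's anchor in kb, positive downstream of the gene, for Myc (top) and Lin28a (bottom). Stars mark called loops. Myc contacts cluster mostly within 204 kb downstream, while Lin28a contacts lie on both sides and are lower in D2 throughout.

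Mycn, the second Myc family gene of these cells, was dominated by a single partner. The anchor 33.1 kb downstream, over start sites of 4930519A11Rik, Gm40271 and Rpl36-ps3, took 46.3% of its counts, a top share at percentile 99.5 of the 3343 genes. It had 190 and 160 counts in B6 and 233 and 216 in D2 (61.2 ± 5.8 and 78.8 ± 7.65 CPM), a log2 fold change of 0.30 (SE 0.22, adjusted p = 0.653, edgeR). D2 was above B6 in this loop, while the loops to 58.3 kb downstream (42 and 59 against 38 and 48 counts) and to Gm35208 at 51.7 kb upstream (39 and 39 against 25 and 42 counts) overlapped between strains. None of the 12 tested loops of Mycn had an unadjusted p under 0.05 with edgeR or DESeq2.

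Mycl, the third family gene, contacted Trit1, whose start sites lie both in its own anchor and in its main partner. That partner, 40.3 kb downstream, had 108 and 75 counts in B6 and 110 and 100 in D2, and the strains overlapped (log2 fold change 0.14, SE 0.23, adjusted p = 0.893, edgeR). The 2 next loops also ended within the Trit1 gene, 22.6 kb away with 46 and 44 against 46 and 50 counts and 16.9 kb away with 35 and 25 against 31 and 38 counts. The first of these separated the strains by a small margin and the second did not. Further partners were Pabpc4, a poly(A)-binding protein, at 286 kb with 30 and 26 against 21 and 26 counts, and Cap1, an actin regulator, at 123 kb with 19 and 20 against 29 and 18 counts. None of the 18 tested loops had an unadjusted p under 0.05 with either tool.

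Max, the shared dimer partner, contacted most often an intergenic anchor 22.4 kb downstream, with 89 and 71 counts in B6 and 89 and 95 in D2 (log2 fold change 0.14, adjusted p = 0.896, edgeR). The second loop, to an anchor within Gm35041 at 39.9 kb upstream, had 35 and 35 against 62 and 49 counts (0.60, SE 0.27, adjusted p = 0.335, edgeR). The third went to the start of Fntb, the beta subunit of farnesyltransferase, 116 kb away, with 35 and 26 counts in B6 and 61 and 52 in D2. Both D2 libraries exceeded both B6 libraries there, and the log2 fold change of 0.82 (SE 0.28, adjusted p = 0.114, edgeR) did not pass. Of 23 tested loops 5 had an unadjusted p under 0.05 with edgeR and 1 with DESeq2, and none was called by edgeR, nor by DESeq2 among the 7 to which it gave an adjusted p.

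Sall4, the highest in CPM per kb, had as its top partner an intergenic anchor 80.0 kb upstream (168834751 to 168857983), with 236 and 245 counts in B6 and 288 and 205 in D2. The D2 libraries lay on both sides of the B6 pair, and the log2 fold change was -0.03 (SE 0.22, adjusted p = 0.972, edgeR). The second partner lay within Atp9a, a membrane lipid transporter gene, 69.5 kb downstream, with 240 and 184 against 183 and 170 counts (-0.33, SE 0.22, adjusted p = 0.603, edgeR). The third covered the start of the zinc finger gene Zfp64, 194 kb upstream, with 139 and 99 against 157 and 103 counts (0.07, SE 0.22, adjusted p = 0.932, edgeR). D2 replicate 1 was the higher D2 library in each of these 3 loops.

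The Zfp64 loop had more counts than nearly all of the 59651 loops of similar distance (within 10%), whose median was 4 counts. Those loops were not matched for anchor width. The Sall4 anchor was 54.8 kb wide, against a median of 8.34 kb over all genes with an anchor over a start site. Only 34.3% of Sall4 counts went to anchors over a start site, below the 5th percentile of the 3343 genes (35.5%). Of 53 tested loops of Sall4 none was called by edgeR, and DESeq2 called none of the 24 to which it gave an adjusted p. At an unadjusted p under 0.05 there were 4 with edgeR and 0 with DESeq2.

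Sall1, with a single annotated start site at 89044162 on chromosome 8, lay in no anchor. The nearest anchor, 89059258 to 89076449, was 15096 bp away and took part in 56 loops. Its total was 98 and 127 counts in B6 and 70 and 57 in D2, so the strains did not overlap. The log2 fold change was -0.79 (SE 0.20, adjusted p = 0.00543, edgeR test over 51820 anchors, of which 9.75% were called). It was called in 7 of 11 settings: it was lost without B6 replicate 2 (adjusted p = 0.191), without D2 replicate 2 (0.0809), with no filter on counts (0.0687) and with DESeq2 (0.231). Because this anchor covers no start site of Sall1, it gives no contact total for the gene.

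For Lin28a, the 215 loops were more than those of 99.7% of the 3343 genes. The strongest partner was an anchor over the starts of Sh3bgrl3 and Ubxn11, 109 kb upstream, with 68 and 66 counts in B6 and 45 and 54 in D2 (log2 fold change -0.50, SE 0.25, adjusted p = 0.416, edgeR). The second, 107 kb downstream and intergenic near Rps6ka1, which encodes a ribosomal S6 kinase, had 51 and 41 against 31 and 31 counts (-0.63, SE 0.28, adjusted p = 0.324, edgeR). Both were lower in both D2 libraries without passing the test.

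The third partner, over the start of Crybg2 at 64.5 kb upstream, had 45 and 55 counts in B6 and 16 and 24 in D2 (17.6 ± 2.94 and 6.97 ± 1.68 CPM) and was called, with a log2 fold change of -1.39 (SE 0.30, adjusted p = 0.00142, edgeR). The loop to Arid1a, a subunit of the BAF chromatin remodelling complex, 273 kb downstream, had 38 and 39 counts in B6 and 13 and 8 in D2 (13.5 ± 0.61 and 3.71 ± 1.40 CPM). Its log2 fold change was -1.93 (SE 0.36, adjusted p = 5.7e-05, edgeR). The Arid1a anchor as a whole was not called, at 2140 and 1839 counts in B6 and 1656 and 1557 in D2 (log2 fold change -0.27, adjusted p = 0.449, edgeR).

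The other called loops of Lin28a ended at Hmgn2, which encodes a nucleosome-binding protein, at Slc30a2, a zinc transporter gene, and at an intergenic anchor. Hmgn2 at 48.1 kb downstream had 42 and 30 counts in B6 and 13 and 21 in D2 (log2 fold change -1.14, adjusted p = 0.0394, edgeR). Slc30a2 at 343 kb upstream had 26 and 16 against 4 and 6 counts (-2.11, SE 0.48, adjusted p = 0.00267, edgeR), and the intergenic anchor at 79.5 kb downstream had 14 and 18 against 5 and 4 counts (-1.87, adjusted p = 0.0317, edgeR). In the 5 called loops both D2 libraries lay below both B6 libraries, and in 4 of them the partner anchor's total was itself called lower.

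How firmly these loops were called differed. Arid1a was called in 10 of 11 settings, Crybg2 in 8 of 11, Slc30a2 in 7 of 10, and Hmgn2 in 4 of 11 and the intergenic loop in 4 of 9, with the same direction in every setting. DESeq2 gave an adjusted p for 6 of the 25 loops, the Crybg2, Hmgn2 and Arid1a loops among them, and called none of the 6. At an unadjusted p under 0.05 it had 6 of the 25, where edgeR had 17. With 1 library left out, edgeR kept the Arid1a loop throughout. The Crybg2 loop was lost without B6 replicate 2 (adjusted p = 0.173) or D2 replicate 1 (0.0709), and the Slc30a2 loop without B6 replicate 1 (0.395) or D2 replicate 1 (0.111). The Hmgn2 loop was kept only without D2 replicate 2, and the intergenic loop was lost without any 1 of the 4 libraries. Each such fit left 1 strain with a single library. Over the whole table the share of loops called also fell without either B6 library or D2 replicate 1, and rose without D2 replicate 2. A lost call is thus not particular to these loops. All 25 tested loops lay below 0, from -2.11 to -0.18, and 20 had B6 above D2 in all libraries, as did 17.9% of all tested loops. The 25 share the Lin28a anchor and are not separate observations.

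The lower contacts of Lin28a were shared with its surroundings. Within 1 Mb on either side, 66 of 134 tested anchors were called lower in D2 and 0 were called higher by edgeR, against 7.08% of all anchors called lower and 2.67% called higher, and 122 of the 134 lay below 0. These anchor totals include any loop to Lin28a itself. Loops among these anchors that did not use the Lin28a anchor summed to 6765 and 6288 CPM in B6 and 4446 and 4243 CPM in D2, a log2 ratio of -0.59. The anchor of Lin28a changed by -0.84 (SE 0.17, adjusted p = 0.000358, edgeR over anchors), below the flanking median of -0.52, and 25 of the 134 flanking anchors had a value at or below it. The called anchors ran from 518 kb upstream to 854 kb downstream. The largest fall among them was -1.84 on the log2 scale, in an anchor 68.5 kb downstream with 85 and 91 counts in B6 and 18 and 30 in D2.

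When counts were scaled to the totals of these flanks in place of the library, an alternative added after the data were seen, the log2 fold change of the Lin28a contact total was -0.28 (adjusted p = 0.224, edgeR), and Lin28a was no longer called. Chromosome 4 as a whole accounted for 7.92% and 7.75% of all B6 counts, and for 6.86% and 7.05% of those in D2. Scaled to chromosome totals, likewise added later, the change of Lin28a was -0.70 (adjusted p = 0.000104, edgeR), and that of Mycl, on the same chromosome, was 0.39 (adjusted p = 0.0402, edgeR), a call that Mycl did not have otherwise.

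Around Myc the flanks moved less. Of 27 tested anchors within 1 Mb, 2 were called higher and 0 lower by edgeR, at 46.2 kb and 975 kb downstream, both of them partners of Myc. Their median was 0.20, and the Myc anchor (0.58, SE 0.17, adjusted p = 0.0161, edgeR over anchors) lay above 24 of the 27. The flanks without Myc summed to 489 and 518 CPM in B6 and 566 and 604 CPM in D2, a log2 ratio of 0.22. Scaled to these flanks, the log2 fold change of the Myc total was 0.33 (adjusted p = 0.182, edgeR), so that neither gene passed on this scale.

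**Figure D5:**
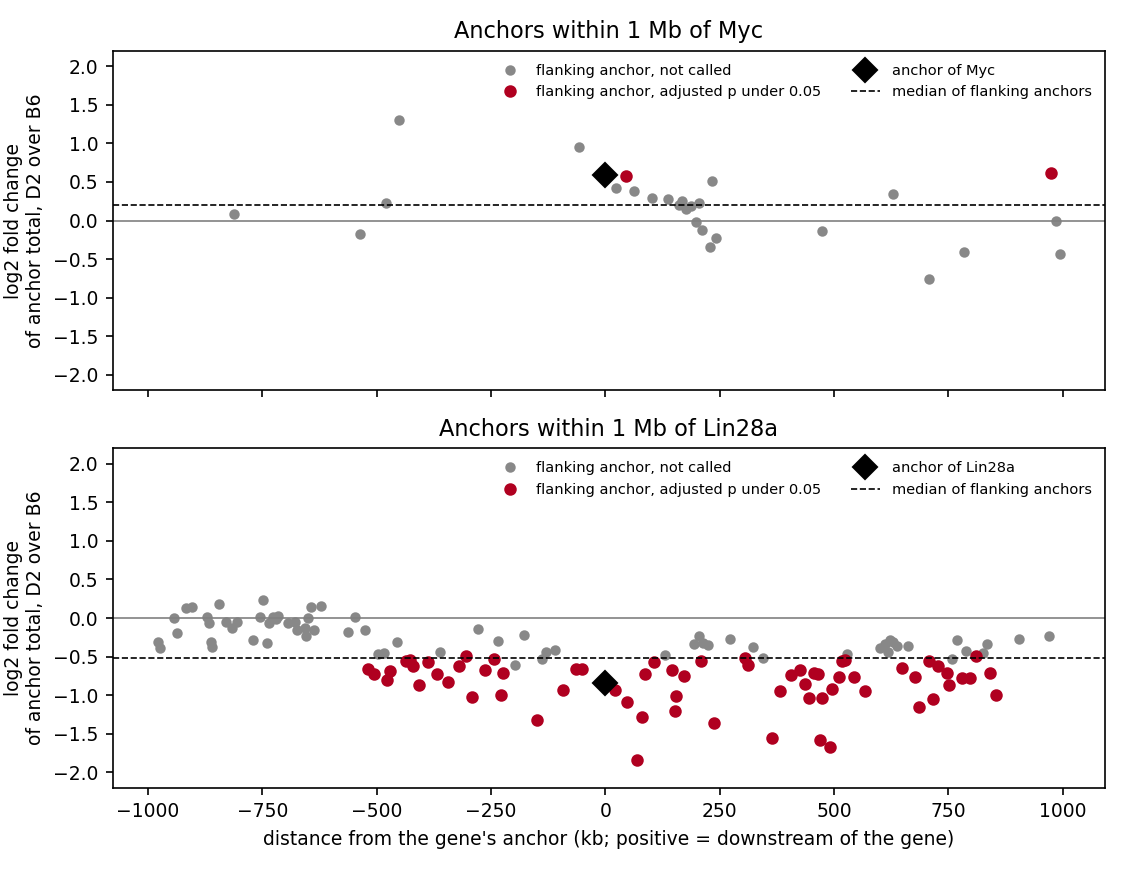
Log2 fold change, D2 over B6, of the total of each tested anchor within 1 Mb of Myc (top) and Lin28a (bottom), against distance in kb (positive downstream of the gene). Red points are called, diamonds are the genes' own anchors and the dashed line is the median of the flanking anchors: 0.20 around Myc and -0.52 around Lin28a.

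The flanks of the other genes differed less between strains, with medians of -0.09 for Mycn, 0.09 for Mycl, -0.02 for Max, -0.13 for Sall4 and 0.14 for Utf1. Called anchors there numbered 1 higher of 33 at Mycn, 1 lower of 50 at Mycl, 5 lower of 63 at Max, 3 lower of 79 at Sall4 and 2 higher of 52 at Utf1, beside 2.67% higher and 7.08% lower over all anchors. The anchor closest to Sall4 among those called, 128 kb upstream, had 90 and 108 counts in B6 and 51 and 71 in D2. All 5 at Max lay 649 to 884 kb downstream, over or near Mthfd1, Tex21 and Syne2.

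Utf1 differed from the other 6 genes by its long contacts. Its first loop went to the start of Adam8, a metalloprotease gene, 27.7 kb downstream, with 64 and 49 counts in B6 and 65 and 70 in D2 (log2 fold change 0.19, adjusted p = 0.853, edgeR). The second, within Kndc1 at 32.1 kb upstream, had 29 and 19 against 31 and 28 counts (0.23, adjusted p = 0.861, edgeR). The third spanned 1024 kb to an anchor over Ifitm1, Ifitm2 and Ifitm5, genes of the interferon-induced transmembrane family, with 21 and 20 counts in B6 and 47 and 19 in D2. The high value there was in D2 replicate 1 alone, and the strains overlapped (0.62, SE 0.32, adjusted p = 0.434, edgeR). Loops of similar distance, not matched for anchor width, had a median of 1 count. Among 27 tested loops, of which 20 lay above 0, none was called by edgeR, and DESeq2 called none of the 4 to which it gave an adjusted p. At an unadjusted p under 0.05 there were 4 with edgeR and 0 with DESeq2. The contact total of Utf1 was called without D2 replicate 2 (log2 fold change 0.38, adjusted p = 0.00869, edgeR) and in none of the 12 other settings.

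Of the 178 anchors that carry the genes or the partners of their tested loops, 24 were called, 2 of the 7 gene anchors and 22 of the 171 partner anchors, 3 of these higher and 19 lower, where 9.75% of all anchors were called, 2.67% higher and 7.08% lower. Partners of Lin28a made up 16 of the 19. The median change of the partner anchors was -0.57 for Lin28a, against -1.14 for the loops, and 0.25 for Myc, against 0.50 for the loops.

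Pooled over the genes, the count-weighted median distance of all loops of the 7 genes was 116 and 126 kb in B6 and 113 and 111 kb in D2, a difference of -8.96 kb. Over the 171 loops with at least 20 counts the difference was 2.33 kb, with the sign turned. With 2 lines per strain the smallest two-sided p of an exact permutation test is 0.333, so no test of these differences was made. Single genes differed in direction. At Max the median was 135 and 142 kb in B6 and 126 and 116 kb in D2, a difference of -17.4 kb, and at Sall4 it was 101 and 106 kb in B6 and 113 and 113 kb in D2, a difference of 9.94 kb. The strains did not overlap in these 2 genes, and how many of all genes separate in this way was not counted. At Mycl the difference was larger, 21.7 kb, with overlap (53.1 and 111 kb in B6, 111 and 96.5 kb in D2). At Mycn it was -12.6 kb, with 1 library of each strain at 51.7 kb.

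By the shape over the 4 libraries, the log2 CPM centred on their mean, the genes nearest to Lin28a among 21605 that share no loop with it were Ece1 on chromosome 4 (Euclidean distance 0.03), Gm38414 on chromosome 8 (0.04) and 2300002M23Rik on chromosome 17 (0.04), and 48 genes lay within 0.1. Those nearest to Myc among 21716 were Gm12108 (0.02), Gm30414 (0.03) and Cdc73 (0.03), with 20 genes within 0.1. With 4 libraries many genes reach such values.

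Genes that act with these factors were taken from lists, and their calls are read against the 13.1% of all genes that were called (3.58% higher and 9.48% lower). Of 16 members of the MYC and MAX network, all had an anchor and 1 was called: Zbtb17, a zinc finger partner of Myc also known as Miz1, had 1388 and 1312 counts in B6 and 662 and 886 in D2. Both D2 libraries lay below both B6 libraries (log2 fold change -0.86, SE 0.13, adjusted p = 2.4e-05, edgeR). Zbtb17 lies on chromosome 4, and scaled to its 1 Mb flanks it changed by -0.18 (adjusted p = 0.436, edgeR). The median of the 16 was 0.09, near the 0.01 of all genes tested.

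Of 12 MYC target genes 11 had an anchor (Nop58 had none), and none was called by edgeR or DESeq2, with 3 and 0 at an unadjusted p under 0.05 and a median of 0.07. Of 13 relatives of Sall4 and NuRD subunits, 11 had an anchor (Gatad2a had none, and Rbbp7 was not on the chromosomes of the table). Mta2 was called higher, with 565 and 494 counts in B6 and 823 and 630 in D2 (log2 fold change 0.41, SE 0.14, adjusted p = 0.0490, edgeR; 0.182 with DESeq2). Mta3 was called lower, with 188 and 183 against 92 and 155 counts (-0.65, SE 0.18, adjusted p = 0.0137, edgeR; 0.133 with DESeq2), and its change was 0.31 when scaled to its 1 Mb flanks. Both genes encode subunits of NuRD.

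Without D2 replicate 1, Mta2 was at 0.16 (adjusted p = 0.456) and Mta3 at -0.35 (adjusted p = 0.183) in edgeR, and both were also lost without either B6 library. The median of this list was 0.12. Of 11 genes of the LIN28 and let-7 pathway, 9 had an anchor (Trim71 and Igf2bp1 had none), with a median of -0.08. Drosha, the nuclease that cuts primary microRNAs, was called lower, with 419 and 344 counts in B6 and 290 and 295 in D2 (-0.44, SE 0.13, adjusted p = 0.0269, edgeR; 0.171 with DESeq2), and was lost without either B6 library (adjusted p = 0.496 without replicate 1 and 0.0841 without replicate 2).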

How the data were processed

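H3K27ac HiChIP was done in 2 B6 and 2 D2 embryonic stem cell lines, with 1 library each. Per the submitters' processing notes, HiC-Pro 2.11.4, DESeq2 and the mm10 build were used, with no role or settings given. The deposited series table holds raw read-pair counts per anchor pair, with no normalization by the authors, and the deposited single-library files hold the same counts with a value between 0 and 1 that was taken as the caller's q-value. Counts of the 2 sources were equal in every pair, and both ends of each of the 56562 anchors fell on GATC, the DpnII site, in GRCm38.

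Each library's group came from its title. Counts were summed per anchor and per gene (start sites from GENCODE M21) and tested in edgeR 4.0.16 (limma 3.58.1, R 4.3.3) by glmQLFit and glmQLFTest, with TMM, strain as the only term, at least 20 counts over the 4 libraries and Benjamini-Hochberg adjustment over all features. Loops, gene totals and anchors were fitted and normalized separately, so a gene and its anchor can differ slightly in value. Log2 fold changes are D2 over B6 and SE is that of the coefficient. On simulated counts for D2 against B6 among genes (21675 tested), 83.0% of genes changed 2-fold were called, and among loops (98563 tested) 2.25% of those changed 2-fold. The simulation gave all genes, or all loops, and both strains the same spread. In the data the D2 pair differed more than the B6 pair, with a mean chi-square per gene of 4.88 against 1.84 (1 expected). The simulated shares may therefore not hold for these data. Intervals and p-values do not cover PCR duplicates. Alternatives were RLE factors, plain library totals, DESeq2 1.42.0, a replicate term, each library left out, other count minimums, other definitions of a start site and, added later, totals within the chromosome and within 1 Mb flanks (genes with at least 100 flank counts per library).

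Replicate numbers did not pair the libraries: the deviations of replicate 1 from replicate 2 correlated at -0.002 (loops) and 0.03 (gene totals) between strains. The genes, lists and loops named were set by rule: all 8 genes, the 3 loops of each with the most counts, every called loop, and called genes of the related lists, while the other loops and anchors named were chosen after their values were seen. Members and lists were chosen with earlier results of these data known. Summed levels of marker lists were not adjusted for the number of genes or the width of anchors. Marker lists for primed epiblast, trophoblast, endoderm, mesoderm and neural cells had summed levels of 131 to 149, 96.6 to 111, 41.4 to 47.4, 172 to 218 and 64.6 to 85.6 CPM per library, with no gene called by edgeR or DESeq2 and, of 3, 2, 3, 3 and 3 genes tested, 1, 2, 0, 1 and 1 at an unadjusted p under 0.05 in edgeR. In the pluripotency list edgeR called 2 of 7 genes, Nanog and Sox2, both higher in D2, against 13.1% of all genes, and DESeq2 called 0 of 7 (5 and 1 at an unadjusted p under 0.05); Tbx3 and Zfp42 had values above 0 and Klf4, Pou5f1 and Prdm14 below 0.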

Additional observations from a re-analysis of the deposited data

How the results depend on the processing

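The number of called loops at the genes, 6, was 0 with DESeq2 and 2 with no filter on counts. DESeq2 gave an adjusted p for 53 of the 171 loops and for 3 of the 6 (8 of the 171 at an unadjusted p under 0.05). Of all tested loops, 1.45% were called in the main test, 0.075% with DESeq2 and 0.0502% with no filter. The number of called gene totals, 2, was 1 with DESeq2 (Lin28a), 0 when scaled to 1 Mb flanks (3 at an unadjusted p under 0.05 in edgeR) and 1 to 3 with 1 library left out. The number of called anchors, 24, was 12 with DESeq2, 14 with no filter and 8 to 50 with 1 library left out, lowest without B6 replicate 1 and highest without D2 replicate 2. The distance difference of -8.96 kb was 2.33 kb over loops with at least 20 counts and -14.0 to -3.93 kb with 1 library left out.

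Some values changed sign. For the contact total of Mycn these were 0.000542 with RLE factors, 0.048 with library totals, 0.000503 with DESeq2, 0.054 within chromosomes, 0.0093 with start sites within 2 kb and 0.031 scaled to flanks, with a range of -0.043 (without B6 replicate 1) to 0.031 (without B6 replicate 2). The total of Sall4 was 0.067 scaled to flanks and lay between -0.16 and 0.019 when D2 replicate 1 or 2 was left out. Its top loop was 0.041 with library totals, 0.055 with no filter and 0.016 within chromosomes, and ranged from -0.34 to 0.23 without D2 replicates 1 and 2, with 0.020 without B6 replicate 2. The top loop of Mycl ranged from -0.086 to 0.39 without B6 replicates 2 and 1, and the total of Mta3, called at -0.65, was 0.31 scaled to flanks. The cause was not tested for any of these. With replicate number as a block, which the data gave no reason to use, 4 loops, 2 gene totals and 32 anchors were called. Over all features it called 1.24% of loops, 14.9% of gene totals and 11.4% of anchors. Among single loops, totals and the anchor near Sall1, 233 values under alternatives kept their direction and side of the threshold, 53 lost a call and 2 gained one. Of the distance differences of single genes, 52 values stayed within 1 SD of the main value, 5 of them with the other sign, and 4 moved further. At this depth 611 of 782 loops had under 20 counts over the 4 libraries and were not tested.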

Other observations

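The authors' q-value, taken per library, was under 0.01 in all 4 libraries for 61 of 176 loops at Sall4, 29 of 104 at Utf1, 20 of 215 at Lin28a, 19 of 102 at Max, 14 of 90 at Mycl, 7 of 52 at Mycn and 6 of 43 at Myc. At Lin28a the number of loops under this threshold was 78 and 64 in the B6 libraries and 43 and 52 in the D2 libraries, so the strains were separated in the same direction as in the counts on which the q-value rests. At Myc it was 9 and 15 in B6 and 10 and 13 in D2, with overlap. These numbers were not set against those of the whole table.

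The Lin28a anchor had loops with counts to 157 and 143 partners in B6 and 112 and 128 in D2, and the Myc anchor to 30 and 32 in B6 and 26 and 34 in D2. Over the whole table, 833100 and 822266 loops had counts in the B6 libraries and 715798 and 803268 in the D2 libraries. The D2 libraries were thus lower there too, with D2 replicate 1 lowest. Shares of counts going to anchors over a start site differed little between strains: Lin28a had 68.4% and 70.3% in the B6 libraries, against 68.4% and 66.7% in the D2 libraries, and Myc had 52.4% and 51.3% in B6 and 56.8% and 51.3% in D2. For Mycn, both D2 libraries (66.2% and 62.1%) were above both B6 libraries (58.7% and 55.5%), as was the share of its loop with the most counts, at 54.3% and 48.2% in D2 and 45.1% and 37.5% in B6. That loop ends at an anchor over start sites, so the 2 shares are not separate observations. Max also had both D2 libraries (43.5% and 43.1%) above both B6 libraries (40.2% and 42.6%). How many of all genes separate in this way was not counted.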
